A study of Mus musculus with 20 samples.

Results

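Tumour RNA was compared between 5 mice given an antibody against the receptor PD-1 and 5 mice given vehicle, all after sham surgery and so with their ovaries in place. These are 10 of the 20 tumours of the study, taken by the treatment in each sample's label. The other 10 came from ovariectomised mice on letrozole, an aromatase inhibitor, with or without the same antibody, and serve here to estimate the spread and for 1 comparison near the end. All tumours grew from SSM3, a mouse mammary tumour line that the series labels ER+, implanted in the fourth inguinal gland of immunocompetent 129S6/SvEv mice (129/SvEv in the strain label) that were 2 to 4 months old. Treatment began at a volume near 150 mm3. Both sham groups had a daily injection of 5% ethanol in saline under the skin for 25 days, and the anti-PD-1 group was also given 250 µg of antibody into the peritoneum on days 3, 5 and 7 after surgery. The labels name no control antibody for the vehicle group, so the antibody's target and the injection of any antibody cannot be told apart, and they do not give the clone of the antibody. The 5 tumours of a group are called biological replicates in the series' design text, and all derive from 1 transplanted tumour line.

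PD-1, encoded by Pdcd1, is an inhibitory receptor on activated T cells. When it binds PD-L1 (Cd274) or PD-L2 (Pdcd1lg2) on tumour or myeloid cells, it recruits the phosphatase SHP-2 (Ptpn11) and damps signalling from the T cell receptor and CD28. Where antibodies that block it act, T cells are known to regain interferon gamma production and killing, which raises interferon-induced genes and antigen presentation in the tumour, and mammary tumours that express the oestrogen receptor are known as a setting with few T cells and a weak response.

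Values are normalised counts (reads of a library over its size factor) for 1 transcript per gene. The vehicle libraries held 19102866 to 27987671 recovered reads and the anti-PD-1 libraries 12495788 to 31393828, a difference that did not pass an exact permutation test (two-sided p = 0.246, n = 5 per group). Anti-PD-1 1 to 4, at 12495788 to 17953611, nevertheless each held fewer reads than any vehicle library, and anti-PD-1 5 held the most of all. The part of this depth difference in values listed at 0 below was not tested. Luminal epithelial markers stood at a mean of 13.26 to 13.46 on the log2(count + 1) scale in vehicle and 13.25 to 13.46 in anti-PD-1 tumours, and Krt8, a luminal keratin, averaged 52423 ± 8264 in vehicle and 57494 ± 12863 in anti-PD-1 (mean ± SD, n = 5 per group), so the labelled mammary tumour epithelium was present in all 10. A pair of libraries stood apart. Vehicle 3 lay at 75.11 on the first principal component, where the rest of its group lay between −103.6 and −17.98, and had the highest level of its group in all 8 leukocyte marker lists. Anti-PD-1 1 had the fewest reads and 12.9% of them in its 10 most abundant genes, against 5.96% to 7.75% in the other anti-PD-1 libraries. Where first given, each sham list median is followed in brackets by its lowest and highest value with 1 of the 10 libraries left out. The library is named.

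No gene passed the test for a difference between anti-PD-1 and vehicle tumours. Limma called 0 of 19877 tested genes (0%) at an adjusted p under 0.05, and its smallest adjusted p was 0.9998. At an unadjusted p under 0.05 it had 541 genes (2.72%), 267 higher with antibody (1.34%) and 274 lower (1.38%), and this split became 186 higher and 333 lower when each library was centred on its median and 633 higher and 368 lower without vehicle 3. If no gene differed, about 5% would have such a p on average. A count test on recovered reads gave 0 genes with edgeR (533 unadjusted, 2.68%) and 5 of 19803 with DESeq2 (0.0252%; 544 unadjusted, 2.75%). The 5 anti-PD-1 values lay all above the 5 vehicle values for 41 genes (0.206%) and all below for 42 (0.211%). On average 9956 genes (50.1%) were higher with antibody, and the median log2 difference over all genes was 0.00.

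The precision behind this result depended on a gene's level. A gene's level is its mean log2(count + 1) over the 20 libraries, and the median over genes of their median count was 248. For genes above the median level, the median standard error of the log2 difference was 0.14. Of their 95% intervals, 95.7% lay within 1 log2 unit on either side of 0. Below that level the median standard error was 0.55 and 27.7% of intervals did so. Over all genes the share was 61.7% (12271 genes). For abundant genes a 2-fold difference therefore lay outside most intervals, whereas for sparse genes, those of T cells among them, it was usually not detectable at this depth and spread. The plot of difference against level shows this narrowing.

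**Figure D1:**
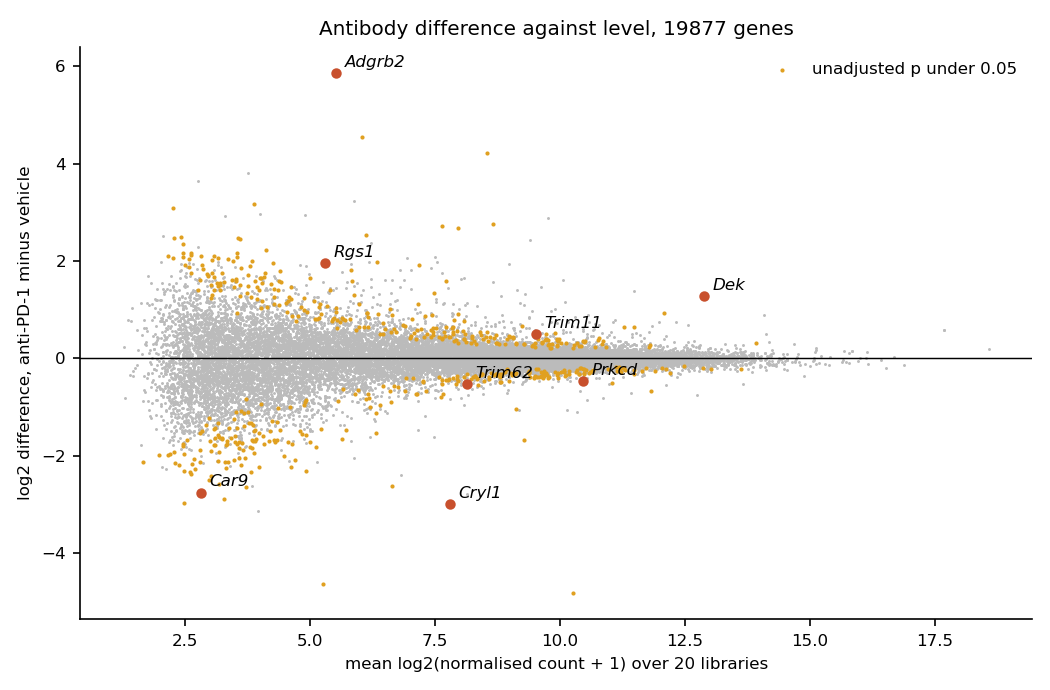
Log2 difference between anti-PD-1 and vehicle tumours for 19877 genes (vertical axis) against the mean log2(normalised count + 1) over 20 libraries (horizontal axis). Each grey point is a gene, yellow points have an unadjusted p under 0.05 by limma, and the larger red points are genes named in the text. The cloud narrows with level and is centred on 0, and among the named genes Rgs1 (1.95) and Dek (1.28) lie above it and Cryl1 (−2.99) below. Adgrb2 has the highest of the red points, from high values in anti-PD-1 1 and anti-PD-1 3 alone, and Car9 also has a red point below 0.

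The target of the antibody was almost silent in these tumours. Pdcd1 (ENSMUST00000027507) had 0, 0, 30.9, 0 and 0 normalised counts in vehicle replicates 1 to 5 and 12.7, 0, 5.52, 5.01 and 0 in anti-PD-1 replicates 1 to 5. It was detected in 1 of 5 vehicle and 3 of 5 anti-PD-1 libraries, and the groups overlapped, with a log2 difference of 0.81 (SE 1.17, 95% interval −1.63 to 3.26). It was 1.81 without vehicle 3 and 0.32 without anti-PD-1 1, and on recovered reads the direction turned, to −0.54 with edgeR and −0.46 with DESeq2. Its main ligand gene Cd274 (ENSMUST00000016640), induced by interferons, had 55, 29.5, 73, 65.4 and 61.5 counts in vehicle and 21.2, 65.1, 123, 32.6 and 45.8 in anti-PD-1 tumours. The highest Cd274 value, in anti-PD-1 3, and the lowest, in anti-PD-1 1, were both in treated tumours, and the difference was −0.18 (SE 0.35, 95% interval −0.91 to 0.55), or 0.11 without anti-PD-1 1 and 0.01 with edgeR. An overlapping gene covers 14.1% of the exon bases of Cd274, and reads there could belong to either. The second ligand gene, Pdcd1lg2, was below the filter, at 0 to 1.87 counts in vehicle and 0 to 5.52 in anti-PD-1 libraries.

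Of 9 genes of the receptor, its ligands and its proximal signalling, 8 were tested and 3 averaged higher with antibody, with a median log2 difference of −0.09 (−0.18 without vehicle 4, −0.01 without anti-PD-1 1). The genes with the smallest p in the list were Cd80, a ligand of CD28 and CTLA-4, and Cd28, the co-stimulatory receptor that PD-1 signalling acts on. Cd80 had 23.8, 52.2, 28.1, 5.95 and 20.5 counts in vehicle and 2.12, 6.20, 18, 16.3 and 13.7 in anti-PD-1 tumours. The groups overlapped, although the 4 highest values were all in vehicle tumours, and the log2 difference was −1.15 (SE 0.59, 95% interval −2.38 to 0.08). Cd28 was at 0 in 1 vehicle library and in 3 anti-PD-1 libraries, and its difference was −1.86 (SE 1.06, 95% interval −4.06 to 0.34).

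Other inhibitory and co-stimulatory receptors gave a median of −0.01 (−0.22 without vehicle 4, 0.37 without vehicle 3) over 23 tested of 30 members. Lag3, a second inhibitory receptor of T cells, had 23.8, 25, 31.8, 19 and 17.3 counts in vehicle and 8.47, 35.7, 45.6, 25.1 and 19.1 in anti-PD-1 tumours. The treated tumours enclosed the vehicle range on both sides, and the difference was 0.03 (SE 0.53, 95% interval −1.08 to 1.14). Havcr2, which encodes TIM-3 and is also expressed by myeloid cells, had 44, 11.4, 123, 7.14 and 42.6 counts in vehicle and 29.7, 20.2, 70.4, 40.1 and 52 in anti-PD-1 tumours, a difference of 0.41 (SE 0.57, 95% interval −0.78 to 1.60) with vehicle 3 the highest of all 10. It was −0.06 without vehicle 4 and −0.10 with edgeR. Ctla4 and Tigit were below the filter, at no more than 11.2 and 15.9 counts in any of the 10 libraries. The members with the smallest p were Tnfrsf14, a receptor of the TNF family, at 0.82 (SE 0.44, 95% interval −0.09 to 1.73), and Cd47, the signal that restrains phagocytosis, at −0.22 (SE 0.13, 95% interval −0.50 to 0.06).

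**Figure D2:**
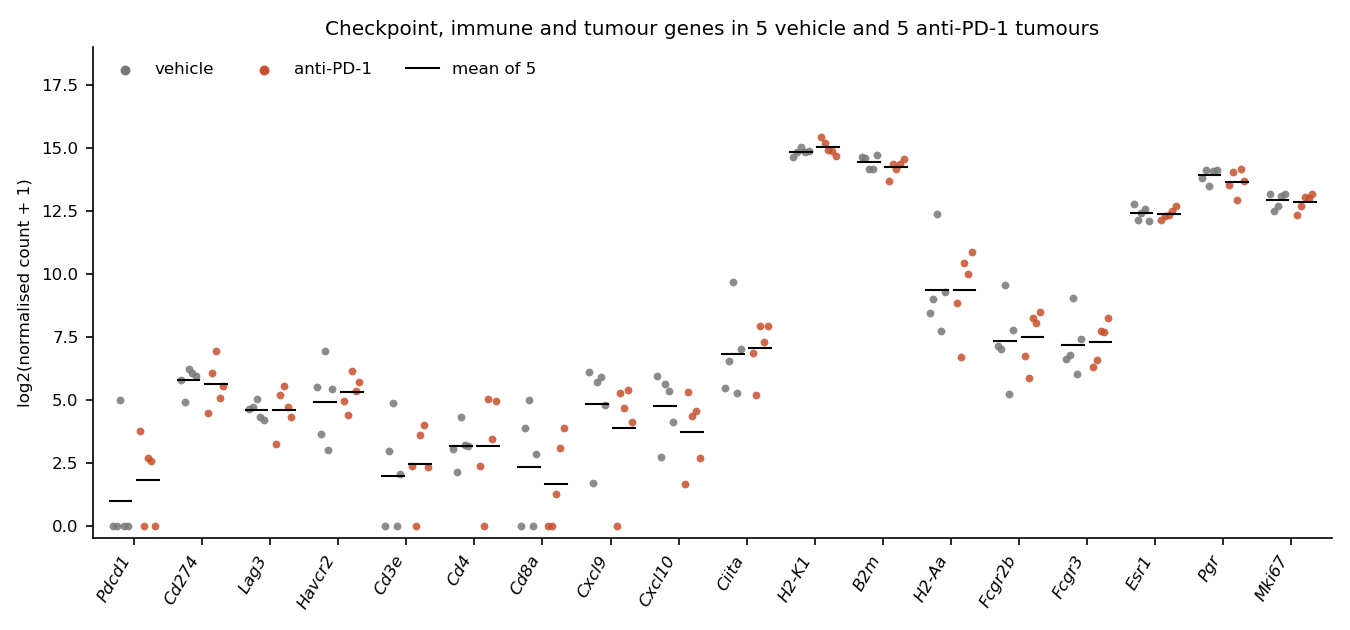
Log2(normalised count + 1) of 18 checkpoint, immune and tumour genes (vertical axis) in 5 vehicle (grey) and 5 anti-PD-1 (red) tumours. Each point is a tumour and each black line the mean of 5. The red and grey points overlap for every gene shown, T cell genes lie near the floor, and H2-Aa, Ciita, Fcgr2b and Fcgr3 have 1 high vehicle point, from vehicle 3.

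T cell transcripts were sparse in both groups, and none passed the test. In bulk tumours, fewer cells of a type and less RNA per cell cannot be told apart. Cd3e (ENSMUST00000102832), part of the T cell receptor complex, had 0, 6.81, 28.1, 0 and 3.15 counts in vehicle and 4.24, 0, 11, 15 and 4.10 in anti-PD-1 tumours. The highest value was in vehicle 3, 3 of the 10 libraries were at 0, and the log2 difference was 0.49 (SE 1.12, 95% interval −1.84 to 2.82), but −0.13 with edgeR and −0.09 summed over transcripts. The co-receptor gene Cd8a (ENSMUST00000066747) had 0, 13.6, 30.9, 0 and 6.31 counts in vehicle and 0, 0, 1.38, 7.52 and 13.7 in anti-PD-1 tumours, a difference of −0.70 (SE 1.16, 95% interval −3.12 to 1.71), or 0.37 without both vehicle 3 and anti-PD-1 1. Cd8b1, which encodes the other CD8 chain, differed the other way, by 0.62, or 0.44 with edgeR. Its difference ran from 0.07 to 1.80 over the alternatives, and outside DESeq2 its adjusted p went no lower than 0.96. For Cd4 (ENSMUST00000024044), the other co-receptor, which macrophages can also express, the values were 7.33, 3.40, 18.7, 8.33 and 7.88 and 4.24, 0, 31.8, 10 and 30.1. The 2 highest Cd4 values were in anti-PD-1 3 and anti-PD-1 5 and the only 0 was in anti-PD-1 2, and the log2 difference was −0.01 (SE 0.85, 95% interval −1.77 to 1.76). It was 0.76 with edgeR and 0.79 without anti-PD-1 2, but −0.32 summed over transcripts and −0.47 without anti-PD-1 3.

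Over the T cell list, 6 of 19 tested members averaged higher with antibody and the median log2 difference was −0.31 (−0.79 without vehicle 1, 0.05 without vehicle 3), where all genes had a median of 0.00. The mean marker level ran from 2.80 to 5.56 on the log2 scale in vehicle and from 2.44 to 4.05 in anti-PD-1 tumours, which overlap. Vehicle 3 held the top of that range, and the next vehicle library stood at 3.75. Trbc1, a constant region of the T cell receptor beta chain, was at 0 in 1 vehicle and 4 anti-PD-1 libraries (log2 difference −2.22, SE 1.09, 95% interval −4.49 to 0.05), and Cd6, a T cell surface receptor, was at 0 in no vehicle and 3 anti-PD-1 libraries (difference −1.87, SE 0.93, 95% interval −3.80 to 0.05). Both intervals include 0. Anti-PD-1 1 to 4 held fewer reads than any vehicle library, and the part of depth in these zeros was not tested. Markers listed at 0 in all 5 libraries were 0 of 22 in vehicle and 1 in anti-PD-1 tumours.

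Genes of killing were close to the detection floor. Of 20 cytotoxic and NK cell markers only 7 were tested, 3 averaged higher, and the median was −0.11 (−0.52 without vehicle 1, 0.23 without vehicle 3). Granzyme A (Gzma), a protease of cytotoxic granules, had 31.1, 15.9, 127, 88 and 20.5 counts in vehicle and 0, 52.7, 49.7, 45.1 and 139 in anti-PD-1 tumours. Its highest value was in anti-PD-1 5 and its lowest in anti-PD-1 1, with a difference of −0.58 (SE 1.05, 95% interval −2.78 to 1.61) that was 0.62 without anti-PD-1 1 and 0.04 with edgeR. Granzyme B (Gzmb) was above 0 in 1 vehicle library (13.1 counts) and 2 anti-PD-1 libraries (at most 4.24), perforin (Prf1) in 3 and 1. Interferon gamma itself (Ifng) had 3.74 counts in vehicle 3 and was listed at 0 in the other 9 libraries.

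No activation or exhaustion factor passed the test. T cell receptor signalling had a median of 0.00 (−0.11 without vehicle 1, 0.23 without vehicle 3) over 20 genes, with 10 higher, and exhaustion and memory factors one of 0.02 (−0.20 without vehicle 4, 0.22 without vehicle 3) over 21, with 11 higher. Without vehicle 3, 15 and 15 of them were higher, and without anti-PD-1 5 8 and 7. Tcf7, which encodes TCF-1, a factor of stem-like T cells that epithelium and stroma also express, was 1 of 10 list members with an unadjusted p under 0.05. It had 152, 172, 185, 107 and 233 counts in vehicle and 212, 174, 249.9, 327 and 198 in anti-PD-1 tumours. The groups overlapped, with the highest value in anti-PD-1 4 and the lowest in vehicle 4, and the difference was 0.46 (SE 0.21, 95% interval 0.01 to 0.90). Egr2, an early gene of T cell receptor signalling that other cells also induce, had 38.5, 61.3, 342, 11.9 and 41 counts in vehicle and 136, 85.3, 113, 120.3 and 131 in anti-PD-1 tumours. All 5 treated tumours lay between 85.3 and 136 counts with vehicle 3 above and the other 4 vehicle tumours below them, for a difference of 1.11 (SE 0.56, 95% interval −0.05 to 2.28).

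No regulatory T cell gene passed the test. Over 7 tested of 10 members the median was 0.15 (−0.07 without vehicle 1, 0.26 without anti-PD-1 5), with 4 higher. Foxp3 (ENSMUST00000115740), the factor that defines these cells, had 321, 332, 264, 219 and 229 counts in vehicle and 415, 302, 284, 316 and 209 in anti-PD-1 tumours, a difference of 0.15 (SE 0.17, 95% interval −0.21 to 0.51). Of its 10 transcripts, 4 stood at 205 to 415 counts and the other 6 at 0 to 55.1 in the 10 libraries, and 19.8% of the exon bases of this transcript are also those of Ccdc22. Which gene these reads belong to was not tested. Lrrc32, a surface protein of activated regulatory T cells that endothelium also makes, had 44, 85.1, 239, 7.14 and 46.5 and 76.3, 24.8, 112, 105 and 202 counts, highest in vehicle 3 and anti-PD-1 5 (difference 0.75, SE 0.64, 95% interval −0.57 to 2.08).

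**Figure D3:**
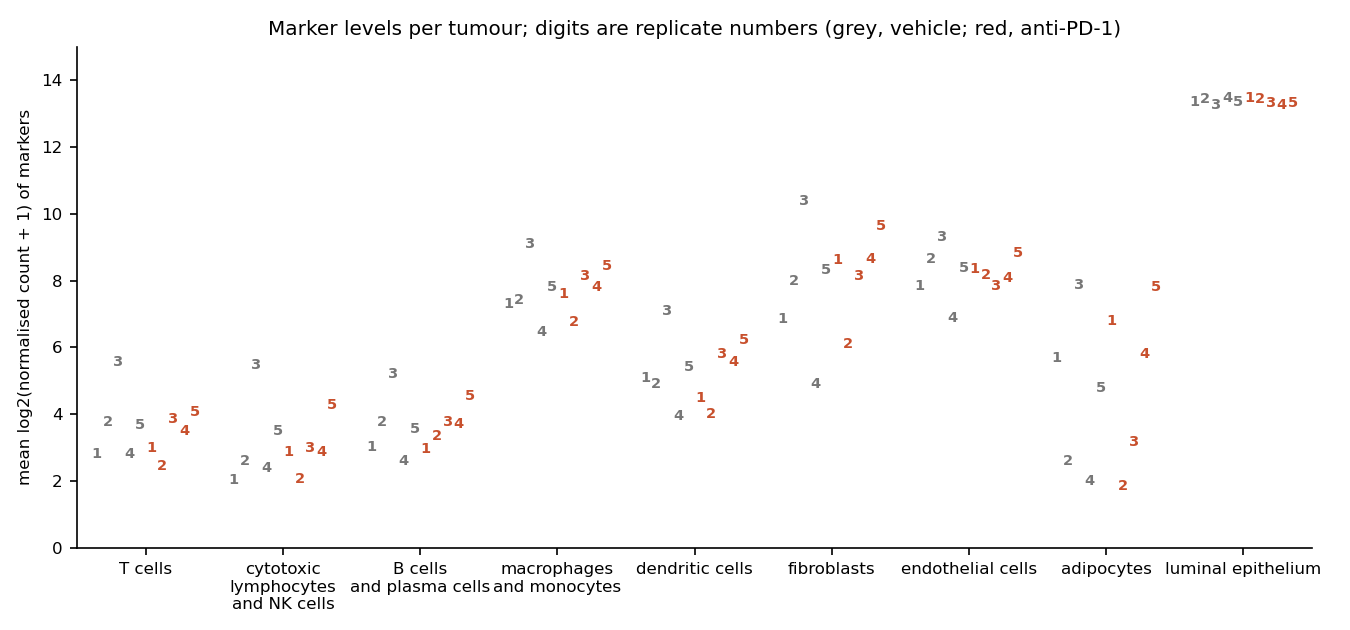
Mean log2(normalised count + 1) over the tested markers of 9 cell types (vertical axis) in each tumour. Each digit is a replicate number, grey for vehicle and red for anti-PD-1. Grey 3 is the highest vehicle tumour for every immune and stromal type shown, red 5 is the highest treated tumour for each of them, and luminal levels are nearly equal in all 10.

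No interferon-induced gene, the usual downstream readout of T cell reactivation, passed the test. Of 33 interferon gamma response genes, all tested, 15 averaged higher with antibody and the median log2 difference was −0.04 (−0.12 without anti-PD-1 3, 0.15 without vehicle 3). For 19 of them the 95% interval lay within 1 log2 unit of 0. To show what such targets look like, the 250 bases before the start of 3 members are printed from RefSeq (GRCm38.p6), with matches to the gamma-activated site TTCNNNGAA and to the interferon-stimulated response element GAAANNGAAA (or its reverse complement TTTCNNTTTC) in capitals. In Igtp the first run of capitals is the former and the second the latter. Each is printed on the strand of its gene. All 3 hold a match and are examples, and not every member holds one. Irf1 has 2 such windows, and the choice between them favoured matches.
Irf1, chr11:53769764-53770013 (plus strand): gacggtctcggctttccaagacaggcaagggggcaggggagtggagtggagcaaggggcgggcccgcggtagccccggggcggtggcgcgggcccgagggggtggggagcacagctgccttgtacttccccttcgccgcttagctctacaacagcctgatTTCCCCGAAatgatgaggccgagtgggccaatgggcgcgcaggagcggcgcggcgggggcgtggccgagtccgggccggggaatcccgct
Igtp, chr11:58199306-58199555 (plus strand): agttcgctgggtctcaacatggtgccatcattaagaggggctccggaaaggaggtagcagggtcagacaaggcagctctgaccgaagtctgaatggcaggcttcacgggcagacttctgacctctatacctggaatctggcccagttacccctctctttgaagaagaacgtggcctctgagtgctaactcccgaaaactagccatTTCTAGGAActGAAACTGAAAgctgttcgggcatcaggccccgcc
Cxcl10, chr5:92348890-92349139 (minus strand): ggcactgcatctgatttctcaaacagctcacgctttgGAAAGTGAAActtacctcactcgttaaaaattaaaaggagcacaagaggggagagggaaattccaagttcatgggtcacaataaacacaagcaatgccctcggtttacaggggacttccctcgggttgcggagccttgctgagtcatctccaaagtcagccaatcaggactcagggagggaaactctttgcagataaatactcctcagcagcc
Of 22 list members with such a window, 9 hold the first motif and 11 the second, where 8.13% and 3.46% of all 27025 genes hold them in any of their windows (7.02% and 2.98% of 32851 windows). The window of Cd274 holds neither. A match describes the letters and shows no binding.

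Irf1, a transcription factor that interferons induce, averaged 1204 ± 87.6 in vehicle and 1136 ± 174 in anti-PD-1 (difference −0.10, SE 0.11, 95% interval −0.31 to 0.12), and Igtp, an interferon-inducible GTPase, 781 ± 77.9 in vehicle and 910.2 ± 297 in anti-PD-1 (difference 0.17, SE 0.19, 95% interval −0.24 to 0.57).

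The chemokines that draw CXCR3-bearing T cells into tumours were low and variable. Cxcl9 (ENSMUST00000113093) had 67.8, 2.27, 50.6, 59.5 and 26.8 counts in vehicle and 0, 37.2, 24.9, 41.3 and 16.4 in anti-PD-1 tumours, and Cxcl10 (ENSMUST00000201176) 60.4, 5.67, 48.7, 39.3 and 16.6 and 2.12, 38.8, 19.3, 22.6 and 5.47. Both were lowest in vehicle 2 within the vehicle group and in anti-PD-1 1 within the treated group. The log2 differences were −0.95 (SE 1.31, 95% interval −3.67 to 1.78) for Cxcl9 and −1.05 (SE 0.69, 95% interval −2.49 to 0.39) for Cxcl10, so both 0 and −1, a 2-fold lower level, lie inside the intervals. Without anti-PD-1 1 they were 0.03 and −0.53. Psmb10, a subunit of the immunoproteasome, had the smallest p of the list. It had 317, 363, 431, 396 and 290.1 counts in vehicle and 657, 462, 475, 402 and 507 in anti-PD-1 tumours, a difference of 0.47 (SE 0.18, 95% interval 0.10 to 0.85), and the groups overlapped only by vehicle 3 and anti-PD-1 4.

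Of 33 tested type I interferon and antiviral genes, 16 averaged higher with antibody and the median was −0.01 (−0.10 without vehicle 1, 0.21 without anti-PD-1 2). Bst2, which encodes tetherin and holds budding viruses at the cell surface, averaged 455 ± 83.3 in vehicle and 628 ± 155 in anti-PD-1 (difference 0.45, SE 0.17, 95% interval 0.10 to 0.80), and Mx2, an antiviral GTPase, 41.7 ± 16.3 in vehicle and 26.3 ± 23.6 in anti-PD-1 (difference −1.48, SE 0.75, 95% interval −3.04 to 0.08, with anti-PD-1 1 at 0). Over 27 tested chemokines the median was −0.03 (−0.34 without vehicle 4, 0.30 without vehicle 3), and over 16 chemokine receptors −0.29 (−0.57 without vehicle 1, 0.04 without vehicle 3). Cxcr6, a receptor of resident memory T cells, had 12.8, 15.9, 57.1, 23.8 and 18.9 counts in vehicle and 8.47, 17.1, 6.90, 15 and 11.6 in anti-PD-1 tumours. The 3 highest values were in vehicle tumours, vehicle 3 above all, and the difference was −0.92 (SE 0.58, 95% interval −2.12 to 0.28).

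Antigen presentation genes of class I were abundant and tightly measured, and none passed the test. Of 18 tested members, 11 averaged higher, the median was 0.13 (0.04 without vehicle 1, 0.16 without vehicle 3), and all 18 intervals lay within 1 log2 unit of 0. H2-K1 (ENSMUST00000114311), a class I heavy chain, had 25699.7, 29159, 33324, 28858 and 30097 counts in vehicle and 44385, 37145, 31010.5, 30358 and 25868 in anti-PD-1 tumours. B2m (ENSMUST00000102476), the light chain it pairs with, had 25390.2, 24607, 18241, 18123 and 26631 and 13174, 21095, 18333, 21159 and 23894. Anti-PD-1 1 held the highest H2-K1 and the lowest B2m value of the 10 tumours, and the differences were 0.18 (SE 0.14, 95% interval −0.11 to 0.47) and −0.22 (SE 0.18, 95% interval −0.59 to 0.15). The class I genes are related in sequence, so counts of H2-K1, H2-Q6 and H2-T23 are uncertain where reads fit several. H2-Q6 and H2-T23, nonclassical class I genes, differed by 0.28 (95% interval −0.01 to 0.56) and 0.27 (−0.04 to 0.59).

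Class II genes, which dendritic cells, macrophages and B cells use to present to CD4+ T cells, varied widely between tumours of each group. Ciita (ENSMUST00000023147), their master regulator, had 43, 93, 816, 38.1 and 129 counts in vehicle and 116, 35.7, 246, 158 and 245 in anti-PD-1 tumours, and H2-Aa (ENSMUST00000040655), a class II alpha chain, 348, 517, 5349.8, 209 and 613 and 457, 102, 1389, 1018 and 1844. Vehicle 3 was the highest of all 10 tumours for both genes, at 5349.8 counts of H2-Aa against 613 in the next vehicle tumour. The differences were 0.25 (SE 0.79, 95% interval −1.38 to 1.89) and −0.00 (SE 0.89, 95% interval −1.85 to 1.84), and that of Ciita was −0.47 with edgeR and −0.12 without vehicle 4. Over the 12 members the median was 0.22 (−0.15 without vehicle 4, 0.83 without vehicle 3), with 8 of them higher on average. Their level moved with the macrophage and dendritic cell markers, which were also highest in vehicle 3, and the part of those cells in it was not tested.

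Receptors for the constant region of antibodies showed no call either. Fcgr2b (ENSMUST00000027966), the inhibitory Fc gamma receptor, had 138, 129, 749.8, 36.9 and 219.9 counts in vehicle and 106, 57.4, 305, 266 and 355 in anti-PD-1 tumours, and Fcgr3 (ENSMUST00000164044), an activating one, 96.2, 110.1, 524, 64.2 and 168 and 78.4, 94.6, 209.9, 205 and 301. In both, vehicle 3 was highest and the other 9 tumours overlapped, with differences of 0.13 (SE 0.61, 95% interval −1.13 to 1.39) and 0.13 (SE 0.47, 95% interval −0.85 to 1.12). Fcgr1, the high-affinity receptor, differed by −0.00 (95% interval −1.14 to 1.13) and Fcgr4 by −0.74 (−2.27 to 0.78), or 0.16 without anti-PD-1 1. Fcgrt, which encodes the neonatal Fc receptor that recycles antibody, averaged 906 ± 610.0 in vehicle and 1227 ± 511 in anti-PD-1 (difference 0.58, SE 0.31, 95% interval −0.06 to 1.22). The 10 members had a median of 0.13 (−0.08 without vehicle 4, 0.62 without vehicle 3).

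Macrophage and monocyte markers gave a median of 0.19 (−0.12 without vehicle 4, 0.67 without vehicle 3) over 26 tested members, with 17 higher (22 without vehicle 3 and 14 without anti-PD-1 5), and dendritic cell markers one of 0.16 (−0.14 without vehicle 4, 0.47 without vehicle 3). Ms4a7, a membrane protein of tissue macrophages, had 43, 40.9, 121, 22.6 and 89.9 counts in vehicle and 91.1, 130.2, 141, 95.2 and 97.1 in anti-PD-1 tumours. All 5 treated tumours exceeded 4 of the 5 vehicle tumours, vehicle 3 lay inside their range, and the difference was 1.01 (SE 0.36, 95% interval 0.26 to 1.77). The opposite pattern was seen in Ly6c2, a marker of blood-derived monocytes, with 8.24, 11.4, 12.2, 4.76 and 18.1 counts in vehicle and 0, 6.20, 6.90, 0 and 2.73 in anti-PD-1 tumours. Its treated values reached 6.90 at most, above only vehicle 4, and the difference was −1.92 (SE 0.78, 95% interval −3.54 to −0.30). Il1b, an inflammatory cytokine of neutrophils and monocytes, had 14.7, 34, 101, 28.6 and 25.2 counts in vehicle and 0, 6.20, 8.28, 17.5 and 24.6 in anti-PD-1 tumours, a difference of −2.08 (SE 0.75, 95% interval −3.66 to −0.51) with overlapping groups. Tcf7, Fcrla, Ms4a7, Ly6c2, Il1b, Psmb10, Bst2, Osmr, Nsdhl and Car9 were the 10 of 680 tested list members (1.47%) with an unadjusted p under 0.05, against 2.72% of all genes.

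Of 27 B cell and plasma cell genes 10 were tested, with a median of 0.13 (−0.10 without vehicle 1, 0.59 without vehicle 3). Fcrla, a B cell protein of the Fc receptor family, had 8.24, 2.27, 19.7, 4.76 and 3.15 counts in vehicle and 0, 0, 2.76, 0 and 1.37 in anti-PD-1 tumours, where 3 libraries were at 0 (difference −2.14, SE 0.95, 95% interval −4.12 to −0.16). Igkc, the constant region of the kappa light chain, had 3.66, 27.2, 41.2, 0 and 4.73 and 19.1, 12.4, 8.28, 17.5 and 71.8 counts, with the highest value in anti-PD-1 5 (difference 1.35, SE 1.14, 95% interval −1.04 to 3.73). Xcr1 and Flt3, of cross-presenting dendritic cells and their precursors, differed by −1.25 (95% interval −2.81 to 0.31) and −1.47 (−3.86 to 0.92), and Xcr1 by 0.05 without both vehicle 3 and anti-PD-1 1. Neutrophil markers had a median of −0.36 (−0.55 without vehicle 1, −0.11 without anti-PD-1 2) over 6 tested of 18, mast cell and eosinophil markers 0.35 (−0.09 without anti-PD-1 5, 0.80 without vehicle 3) over 9 of 14, and complement genes 0.23 (−0.10 without vehicle 4, 0.61 without vehicle 3) over 19.

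Cytokine pathways outside the interferons had medians near 0. Over 19 targets of TNF and NF-kB it was 0.04 (−0.01 without anti-PD-1 1, 0.17 without vehicle 3), with 11 higher on average, over 17 interleukin and JAK-STAT3 genes −0.05 (−0.17 without vehicle 4, −0.01 without vehicle 2), with 6 higher, and over 19 TGF-beta pathway genes 0.07 (−0.06 without vehicle 4, 0.25 without vehicle 3), with 11 higher. Osmr, the receptor for oncostatin M, a cytokine of macrophages and neutrophils, had 338, 719, 828, 477 and 664 counts in vehicle and 1224, 1029, 536, 594 and 975.5 in anti-PD-1 tumours. The 3 highest values were in treated tumours, anti-PD-1 3 and 4 lay within the vehicle range, and the difference was 0.52 (SE 0.24, 95% interval 0.03 to 1.01). Birc3, an inhibitor of apoptosis that NF-kB induces, had 265, 371, 496, 429 and 413 and 89, 298, 326, 281 and 498 counts, lowest in anti-PD-1 1 and highest in anti-PD-1 5 (difference −0.57, SE 0.29, 95% interval −1.17 to 0.04). Tgfb1, the ligand, averaged 1271 ± 341 in vehicle and 1456 ± 371 in anti-PD-1 (difference 0.21, SE 0.18, 95% interval −0.17 to 0.58). In the complement list C1s1, a protease of the first component, had 843, 879, 2575, 966 and 1338 and 1743, 1816, 1773, 1271 and 1578 counts, with vehicle 3 above all treated tumours and 3 of the other 4 vehicle tumours below them (difference 0.44, SE 0.25, 95% interval −0.09 to 0.96). Another gene covers 19.6% of its exon bases.

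Stromal marker levels differed widely between tumours of the same group. Of 16 fibroblast genes, 15 averaged higher with antibody, with a median log2 difference of 0.71 (−0.00 without vehicle 4, 1.36 without vehicle 3), and none passed the test by limma or edgeR or had an unadjusted p under 0.05. Col1a1, the main chain of type I collagen, had 1321, 4859.6, 21158, 575 and 6382 counts in vehicle and 8156, 1290.0, 7378, 5645 and 12348 in anti-PD-1 tumours. Vehicle 3 was the highest of the 10 and vehicle 4 the lowest, so the vehicle group spanned the whole treated range, and the difference was 0.69 (SE 0.77, 95% interval −0.92 to 2.30). The list level moved the same way, 10.38 on the log2 scale in vehicle 3 and 4.89 in vehicle 4, against 6.10 to 9.63 in the treated tumours. The median was 0.25 without anti-PD-1 5. The exception to the direction was Dcn, the matrix proteoglycan decorin, at 1609 ± 1134 in vehicle and 829 ± 546 in anti-PD-1 (difference −1.06, SE 0.69, 95% interval −2.50 to 0.38). Thy1, a surface protein of fibroblasts and T cells, averaged 409.6 ± 384 in vehicle and 551 ± 215 in anti-PD-1 (difference 0.89, SE 0.59, 95% interval −0.34 to 2.12).

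Adipocyte genes varied in the same libraries. Their median was 0.52 (−0.18 without anti-PD-1 5, 1.54 without anti-PD-1 2) over 14 members, 1.45 without vehicle 3 and 0.01 without anti-PD-1 1. Plin1, which coats lipid droplets, had 65.9, 1.13, 369, 1.19 and 18.9 counts in vehicle and 182, 1.55, 20.7, 115 and 439.6 in anti-PD-1 tumours, near 0 in 2 vehicle tumours and 1 treated tumour and above 100 in vehicle 3, anti-PD-1 1, anti-PD-1 4 and anti-PD-1 5. Its difference was 1.56 (SE 1.75, 95% interval −2.08 to 5.21). Endothelial genes were closer, with a median of 0.03 (−0.27 without vehicle 4, 0.33 without vehicle 3) over 16 members and 10 intervals within 1 log2 unit of 0, and for pericytes and smooth muscle it was 0.11 (−0.07 without vehicle 4, 0.27 without vehicle 3) over 12. Tie1, an endothelial receptor, averaged 262 ± 178 in vehicle and 320.3 ± 145 in anti-PD-1 (difference 0.51, SE 0.42, 95% interval −0.35 to 1.38).

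**Figure D4:**
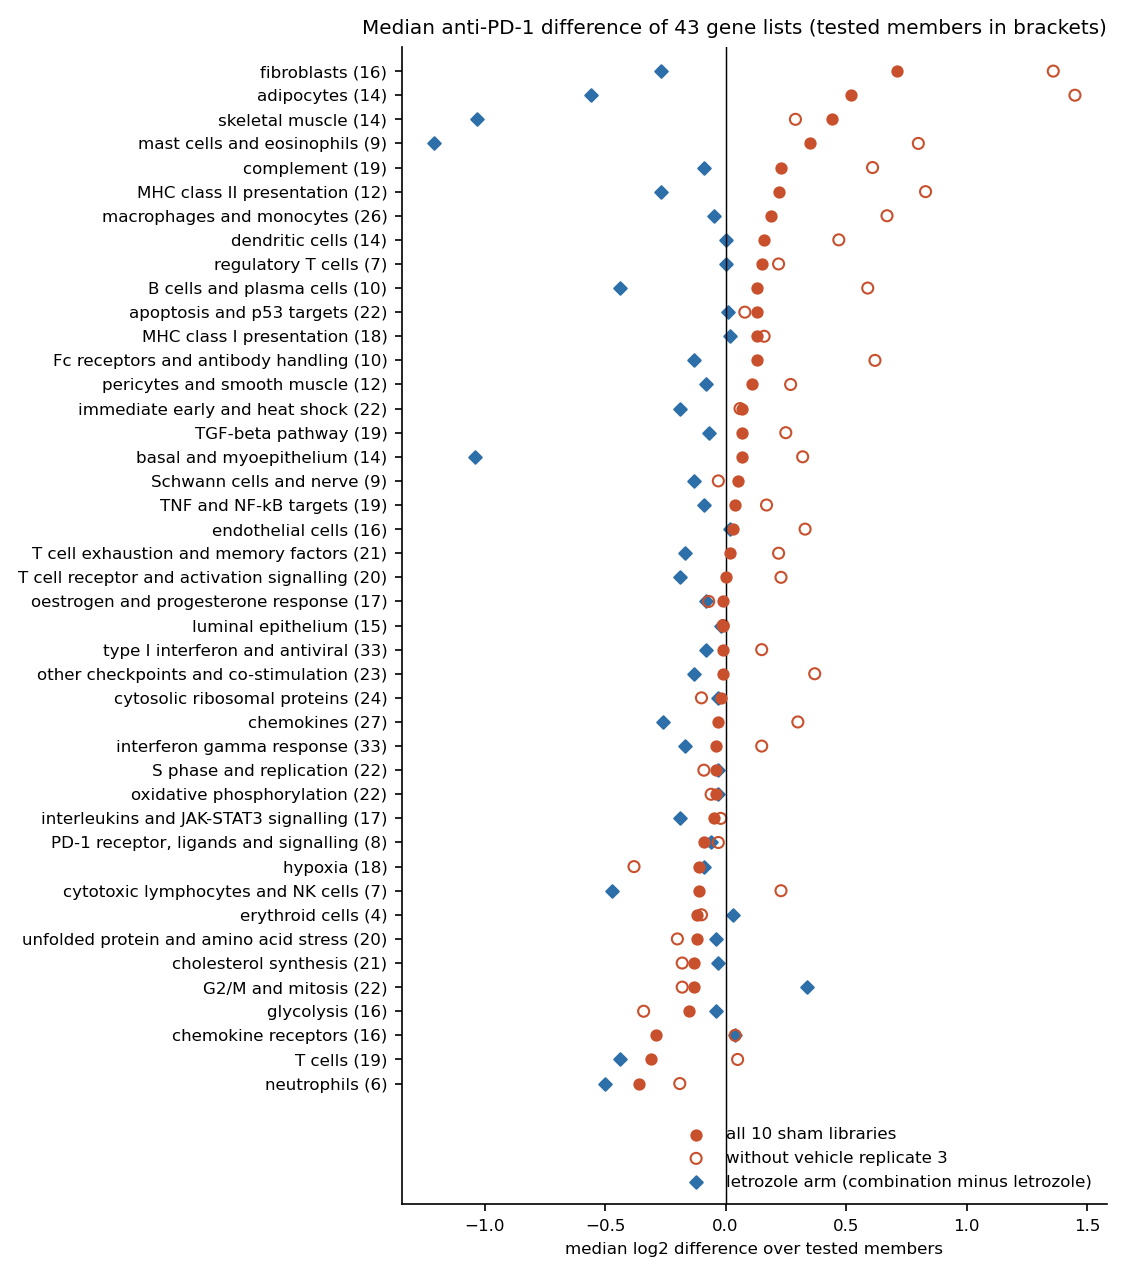
Median log2 difference (horizontal axis) over the tested members of 43 gene lists (vertical axis, number of members in brackets). Filled circles are anti-PD-1 minus vehicle with all 10 sham libraries, open circles the same without vehicle 3, and diamonds the antibody difference in letrozole-treated mice. Fibroblast (0.71) and adipocyte (0.52) genes have the highest filled circles and neutrophil (−0.36) and T cell (−0.31) genes the lowest, and the open circles of most immune and stromal lists lie to the right of the filled ones.

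The tumour epithelium was tightly measured and showed no call. All 15 tested luminal genes had intervals within 1 log2 unit of 0, and their median was −0.01 (−0.05 without anti-PD-1 1, 0.05 without anti-PD-1 4). Esr1 (ENSMUST00000105590), the oestrogen receptor, had 6933, 4516, 5483, 6159 and 4319 counts in vehicle and 4463, 4989, 5165, 5795 and 6701 in anti-PD-1 tumours. The treated values lay within the vehicle range, and the difference was −0.01 (SE 0.14, 95% interval −0.30 to 0.29). Pgr (ENSMUST00000189181), its classical target, had 14153, 17673, 11568, 17101 and 17633 and 11765, 16762, 7763, 18215 and 13162 counts, lowest in anti-PD-1 3, with a difference of −0.25 (SE 0.24, 95% interval −0.75 to 0.25). For 17 genes of the oestrogen and progesterone response the median was −0.01 (−0.07 without anti-PD-1 1, 0.01 without anti-PD-1 2), and Nrip1, a corepressor that oestrogen induces, differed by −0.27 (95% interval −0.61 to 0.08).

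No proliferation gene passed the test. Mki67 (ENSMUST00000033310), the Ki-67 antigen of cycling cells, had 9189, 5764, 6546, 8717 and 9306 counts in vehicle and 5119, 6524, 8445, 8234 and 9159 in anti-PD-1 tumours. The lowest value was in anti-PD-1 1 and the ranges overlapped, for a difference of −0.08 (SE 0.23, 95% interval −0.57 to 0.41). Of 22 mitotic genes 2 averaged higher with antibody, the median was −0.13 (−0.18 without anti-PD-1 3, −0.08 without vehicle 5), and it kept its sign in every alternative run, from −0.18 to −0.08. All 22 intervals lay within 1 log2 unit of 0 and none excluded 0. Cdc20, which activates the anaphase-promoting complex, averaged 2091 ± 396 in vehicle and 1713 ± 257 in anti-PD-1 (difference −0.28, SE 0.19, 95% interval −0.68 to 0.12). The median over 22 replication genes was −0.04 (−0.09 without vehicle 3, 0.00 without vehicle 1), and Rrm2, a subunit of ribonucleotide reductase, differed by −0.26 (95% interval −0.63 to 0.11).

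The glycolysis and cholesterol lists had medians below 0, and no member passed the test. Of 16 glycolysis genes 1 averaged higher with antibody, with a median of −0.15 (−0.34 without vehicle 3, −0.04 without anti-PD-1 5) and a span of −0.30 to 0.00 over the members. Gpi1, glucose-6-phosphate isomerase, had 9070.3, 10172, 5845, 9295 and 8670.1 counts in vehicle and 7322, 7929, 8488, 6849.7 and 6298 in anti-PD-1 tumours. Vehicle 3 was the lowest of the 10 and the other 4 vehicle tumours the 4 highest, the difference was −0.21 (SE 0.12, 95% interval −0.46 to 0.05), and another gene covers 12.3% of its exon bases. Vehicle 3 had the lowest level of this list (11.44 against 12.30 to 12.48 in the other vehicle tumours) and the highest of fibroblast genes, and the part of that library's cell content was not tested.

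Of 21 cholesterol synthesis genes 3 averaged higher, with a median of −0.13 (−0.19 without vehicle 4, −0.04 without vehicle 2). Nsdhl, a dehydrogenase of the pathway, had 366, 614, 412, 349.7 and 542 counts in vehicle and 182, 309, 297, 408 and 394 in anti-PD-1 tumours (difference −0.54, SE 0.21, 95% interval −0.99 to −0.09), with overlapping groups. Hypoxia genes had a median of −0.11 (−0.38 without vehicle 3, −0.02 without vehicle 2) over 18. Among them Car9 (ENSMUST00000030183), carbonic anhydrase IX and a target of hypoxia-inducible factor, had 22.9, 3.40, 16.9, 4.76 and 21.3 counts in vehicle and 0, 0, 0, 0 and 16.4 in anti-PD-1 tumours. It was listed at 0 in 4 of 5 treated tumours and above 0 in all 5 vehicle tumours, although anti-PD-1 5 lay within the vehicle range. Those 4 libraries also held fewer reads than any vehicle library, and anti-PD-1 5 held the most reads in either group. The part of depth in these zeros was not tested. The difference of −2.75 (SE 0.77, 95% interval −4.36 to −1.14) had an adjusted p of 0.9998 by limma, an adjusted p no lower than 0.312 in the alternatives other than DESeq2 and 1 with DESeq2, and Gm12454 covers 7.2% of its exon bases. Ddit4, another hypoxia and stress gene, averaged 4011 ± 279.6 in vehicle and 4936 ± 1239 in anti-PD-1 (difference 0.27, SE 0.14, 95% interval −0.02 to 0.56), the other way.

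Housekeeping and stress programmes were also measured. All 24 cytosolic ribosomal protein genes and all 22 oxidative phosphorylation genes had intervals within 1 log2 unit of 0, with medians of −0.02 (−0.10 without vehicle 3, 0.05 without anti-PD-1 5) and −0.04 (−0.07 without anti-PD-1 1, 0.00 without anti-PD-1 5). Unfolded protein and amino acid stress genes had 4 of 20 members higher on average and a median of −0.12 (−0.20 without vehicle 3, −0.07 without vehicle 2), among them Psat1, an enzyme of serine synthesis, with 1950.2 ± 385 in vehicle and 1588 ± 721 in anti-PD-1 counts (difference −0.38, SE 0.27, 95% interval −0.95 to 0.18). Apoptosis and p53 target genes had 14 of 22 higher and a median of 0.13 (0.04 without vehicle 4, 0.18 without vehicle 5). Casp1, the protease that matures interleukin 1 beta, had 11, 13.6, 20.6, 9.52 and 9.46 counts in vehicle and 0, 0, 13.8, 12.5 and 17.8 in anti-PD-1 tumours, at 0 in 2 of the latter (difference −1.36, SE 0.75, 95% interval −2.92 to 0.20). Mcl1, a survival gene of the BCL2 family, averaged 5407 ± 725 in vehicle and 6440.0 ± 1799 in anti-PD-1 (difference 0.22, SE 0.14, 95% interval −0.06 to 0.50), with its highest value in anti-PD-1 1. Immediate early and heat shock genes had a median of 0.07 (−0.02 without anti-PD-1 1, 0.18 without anti-PD-1 3) over 22. Skeletal muscle genes had a median of 0.44 (0.29 without vehicle 3, 0.86 without anti-PD-1 2) over 14, at levels near the floor. Myl1, a myosin light chain, was above 0 in 1 vehicle and 3 treated tumours and reached 21.2 counts in anti-PD-1 1.

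Rgs1 (ENSMUST00000170870) had the smallest limma p of all 19877 genes. It encodes a regulator that shortens G protein signalling from chemokine receptors in lymphocytes and other leukocytes. Rgs1 had 22, 9.08, 34.6, 9.52 and 26 normalised counts in vehicle and 82.6, 77.5, 52.5, 114 and 49.2 in anti-PD-1 tumours. All 5 treated tumours exceeded all 5 vehicle tumours, and the gene was 3.87-fold higher on the log2(count + 1) scale, a log2 difference of 1.95 (SE 0.39, 95% interval 1.14 to 2.77). The adjusted p was 0.9998 by limma, 1 by edgeR and 0.021 by DESeq2. Among the other alternatives the adjusted p went no lower than 0.211, and the log2 difference ran from 1.73 to 2.18.

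The other 4 genes that DESeq2 called rested on 1 transcript or on few libraries. Cryl1, a crystallin family enzyme, was represented by ENSMUST00000225765, with 702, 88.5, 1986, 1169 and 497 counts in vehicle and 80.5, 77.5, 121, 42.6 and 66.3 in anti-PD-1 tumours (log2 difference −2.99, SE 0.73, 95% interval −4.52 to −1.46, adjusted p 0.00915 by DESeq2). The groups overlapped by vehicle 2, and the gene's other 3 transcripts stood between 150 and 465 counts in all 20 libraries. With the transcript of highest median the difference was 0.03, and outside DESeq2 the adjusted p went no lower than 0.358. Adgrb2, an adhesion receptor gene of the nervous system, had 103349 counts in anti-PD-1 1 and 38554 in anti-PD-1 3, and at most 11.4 in the other 8. Its other 12 transcripts never exceeded 45.7 counts. Gm18805, a predicted gene, was high in the same pair of libraries, at 659 and 7857 counts against 56.8 to 123 in vehicle. Myh2, a muscle myosin, was listed at 0 in 8 of the 10 libraries and reached 11 counts.

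**Figure D5:**
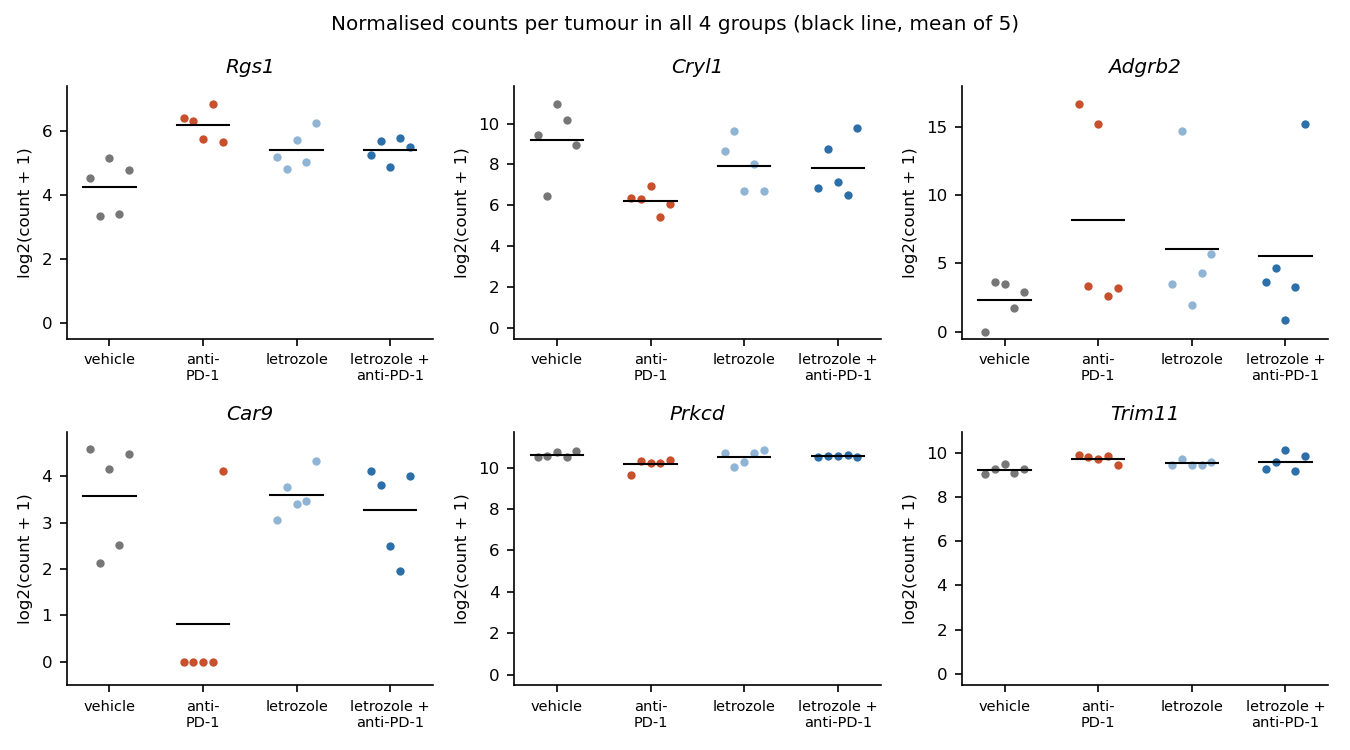
Log2(normalised count + 1) of 6 genes (vertical axis) in the 5 tumours of each of the 4 groups, 1 panel a gene. Each point is a tumour and each black line the mean of 5. In the sham groups Rgs1 and Prkcd separate without overlap, Cryl1, Car9 and Trim11 overlap, and Adgrb2 has 2 high treated tumours, while letrozole groups with and without antibody overlap in every panel.

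Among genes above the median level, those with the smallest p had mostly small differences with little spread. Lower with antibody and without overlap were Trim62, a ubiquitin ligase, with 361, 303, 335, 313 and 307 counts in vehicle and 212, 216, 166, 278 and 269 in anti-PD-1 tumours (difference −0.53, SE 0.15, 95% interval −0.84 to −0.21), and Ppp1r13b, a p53 cofactor, with 1179.6, 1173, 1129.9, 1211 and 1209 and 798, 924, 924, 935 and 1077 (difference −0.35, SE 0.11, 95% interval −0.57 to −0.13). Prkcd, protein kinase C delta, followed with 1448, 1523, 1699, 1466 and 1757 and 809, 1274, 1178, 1190.1 and 1332 (difference −0.46, SE 0.14, 95% interval −0.76 to −0.17). In these 3 the highest treated tumour stayed below the lowest vehicle tumour. Rgs1 and the genes named here were picked for their small p, so their separation is no evidence of its own. Of all genes, 0.418% separated in either direction. Esd, an esterase, and Kctd18 also did not overlap (differences −0.41 and −0.30), although Sgo2a covers 48.9% of the exon bases of Kctd18. Mospd1, Map2k4, Dcdc2b, Fam160b1 and Ripor1 differed by −0.54 to −0.31 with overlapping groups. Map2k4 is a kinase that activates JNK.

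In the other direction, Ddrgk1, of the UFMylation system of the endoplasmic reticulum, did not overlap, with 979.9, 779, 846, 965 and 781 counts in vehicle and 1504, 1040.3, 997, 1054 and 1045 in anti-PD-1 tumours (difference 0.36, SE 0.12, 95% interval 0.11 to 0.62). Trim11, a ubiquitin ligase, had 524, 619.5, 724, 548 and 615 and 947, 898, 841, 913 and 697 (difference 0.50, SE 0.15, 95% interval 0.19 to 0.82), and the groups overlapped only in that vehicle 3 exceeded anti-PD-1 5. Cdk10, a cyclin-dependent kinase, Cdh24, a cadherin, Mplkip, Ell, an elongation factor of RNA polymerase II, Safb, a nuclear scaffold protein, and Man2a2, a Golgi mannosidase, differed by 0.26 to 0.66 with overlap. The largest differences of these genes, 2.67 (SE 0.86, 95% interval 0.89 to 4.46) for Golim4, a Golgi protein, and 1.28 (SE 0.44, 95% interval 0.36 to 2.19) for the chromatin gene Dek, rested on a few libraries. Golim4 had 4837, 460.5, 1728, 105 and 765 counts in the treated tumours and 63.2, 117, 186, 64.2 and 320.0 in vehicle, and its difference was 0.40 with the transcript of highest median. Dek had 50205, 22681, 12032, 9173 and 5912 in the treated and 4554, 9261, 7663, 3582 and 7648 in the vehicle tumours. From anti-PD-1 1 to 5 its value fell while the reads of the library rose, and the part of depth in this was not tested. Kdm1b covers 19.5% of the exon bases of Dek. Among its other transcripts, ENSMUST00000129352 averaged 1269 counts in vehicle and 1427 in anti-PD-1 tumours, ENSMUST00000138401 1465 and 1643, and ENSMUST00000224150 848 and 989. The means were 5286 and 18575 for ENSMUST00000135278, 3846 and 12814 for ENSMUST00000143933, and 4616 and 17901 for ENSMUST00000150652. Overlap with other genes also covers 20.6% of the exon bases of Cdk10 and 15.3% of those of Golim4. None of these 20 genes passed adjustment by limma.

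The same antibody was given to ovariectomised mice on letrozole (1 mg/kg each day), a contrast that shares no library with the sham one. There, too, limma called 0 of 19877 genes (0%; 628 unadjusted, 3.16%, of which 317 higher, 1.59%, and 311 lower, 1.56%; smallest adjusted p 0.7003), edgeR 0 (646, 3.25%) and DESeq2 9 (0.0454%; 718, 3.63%). The test of the difference between both antibody effects gave 0 with limma (393 unadjusted, 1.98%, of which 217 above 0, 1.09%, and 176 below, 0.885%; smallest adjusted p 0.9999), 0 with edgeR (398, 2%) and 4 with DESeq2 (0.0202%; 424, 2.14%). Rgs1 differed by 0.01 (95% interval −0.81 to 0.82) between the letrozole groups, where 35.1, 27.1, 51.7, 31.6 and 75.1 counts without and 37.1, 50.2, 27.8, 53.1 and 43.4 with antibody overlapped. The change in its antibody difference was −1.95 (95% interval −3.10 to −0.79), with an adjusted p of 0.9999 by limma.

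Set side by side, the medians of the T cell list were −0.31 in sham and −0.44 in letrozole-treated mice, and of the interferon gamma list −0.04 and −0.17. Fibroblast genes had 0.71 and −0.27, adipocyte genes 0.52 and −0.56, and mast cell and eosinophil genes 0.35 and −1.21. Without anti-PD-1 5 the sham medians of these 3 lists were 0.25, −0.18 and −0.09. Mitotic genes stood at −0.13 in sham and 0.34 in letrozole-treated mice, where Cdc20 differed by 0.62 (95% interval 0.22 to 1.02), with a change between both effects of 0.90 (95% interval 0.33 to 1.47) that did not pass adjustment by limma. Cd274 differed by −0.18 and 0.12 and Cd8a by −0.70 and 0.06. Basal and myoepithelial genes gave 0.07 (−0.13 without vehicle 1, 0.32 without vehicle 3) and −1.04, and skeletal muscle genes 0.44 and −1.03. The letrozole medians carry no range with a library left out. Skeletal muscle levels ran from 2.61 to 7.59 on the log2 scale with letrozole and from 2.34 to 7.63 with antibody added. For basal genes they ran from 6.93 to 10.40 and 6.01 to 7.93, and for mast cell and eosinophil genes from 4.94 to 6.68 and 2.81 to 6.58, all overlapping.

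Treated tumours varied somewhat more among themselves than vehicle tumours. The median standard deviation of a gene was 0.40 log2 units in the anti-PD-1 and 0.34 in the vehicle group, and 58% of genes had the larger one with antibody. Without vehicle 3 and anti-PD-1 1 both medians were 0.31 and the share was 50.9%. Across genes, vehicle tumours correlated with each other at r = 0.894 to 0.958 and anti-PD-1 tumours at 0.896 to 0.95. Over all 43 lists of pathway and cell type genes, 680 of 778 distinct members were tested, limma and edgeR called 0 of them and DESeq2 1 (Myh2), no member separated the groups without overlap (0.418% of all genes did), and the ranges of the list levels overlapped in all 43. The list medians were above 0 in 21 lists and below 0 in 21, and 36 lay within 0.25 of 0.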

How the data were processed

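Bulk RNA-seq was done on 20 tumours. Per the submitters' processing notes the authors used STAR 2.7.10a, DESeq2 and the build GRCm39 (mm39); how reads were counted, with which annotation, and whether strand was used, the sources used here do not give. Deposited were 127442 Ensembl transcripts, as signal that the authors made by dividing counts by size factors, and 100% of values gave whole reads (tolerance 0.001; size factors 0.4721 to 1.4629). Gene names came from GENCODE vM21, which covers 118889 transcripts (93.3%), and 1.79% to 2.76% of reads fell on the other 8553. As that annotation is of another build, no coordinates of genes are given. For each of 38996 genes the transcript with the most reads was used, and 19877 genes reached 10 or more in 5 or more libraries. Transcripts of a gene share reads, and overlapping genes are uncertain.

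Limma 3.58.1 with a trend was fitted to log2(value + 1) with 4 group means and 16 residual degrees of freedom, adjusted by Benjamini and Hochberg over all tested genes, two-sided, threshold 0.05. Fold changes on this scale understate those of low genes, and p-values cover the spread between these tumours only. Checks on simulated data preceded it. Alternatives were pseudocounts of 0.5 and 5, other filters, scalings and transcript choices, the 2 groups alone, a replicate block, omission of each library, and 2 tests of recovered reads, edgeR 4.0.16 and DESeq2 1.42.0; leaving out 2 libraries together was added after seeing the data. Named genes are a panel of 29 (23 tested), the 10 genes per direction with the smallest p above the median level that are not predicted genes, and per list the 2 members with the smallest p (1 panel gene is not reported here); Rgs1, Cryl1, Adgrb2, Gm18805, Myh2, Vmn2r5, Igtp, Irf1, Krt8, Col1a1, Plin1, Igkc, C3, Lgr5 and Tns1 were added after their values were seen. Members, lists and rules were chosen with earlier results of these data known.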

Additional observations from a re-analysis of the deposited data

Results flagged for a closer look

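In 10 of 172 groups of 5 tumours, the gap between 1 tumour and the nearest other exceeded 0.71 of the group's range, where chance gives about 5% of groups. Values are on the log2(count + 1) scale. Anti-PD-1 1 was the tumour in 5 of them. Cxcl9 was at 0 there against 4.12 to 5.40 in the other treated tumours (gap 0.763), Fcgr4 at 0 against 4.12 to 4.84 (0.852), Prkcd at 9.66 against 10.20 to 10.38 (0.753), Esd at 8.95 against 9.46 to 9.58 (0.803), and Ddrgk1 at 10.56 against 9.96 to 10.04 (0.865). It is also the library with the fewest reads.

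Vehicle 3 was the tumour in 4. Pdcd1 was at 5.00 there and at 0 in the other vehicle tumours (1.0), other checkpoint and co-stimulation genes averaged 7.48 against 5.58 to 6.12 (0.717), interferon gamma response genes 8.70 against 7.63 to 7.93 (0.724), and glycolysis genes 11.44 against 12.30 to 12.48 (0.829). In anti-PD-1 2, TGF-beta pathway genes averaged 9.40 against 10.07 to 10.26 in the other treated tumours (0.782).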

How the results depend on the processing

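Of 25 alternatives for the sham comparison, 24 called 0 genes and DESeq2 on recovered reads called 5; DESeq2 also called 9 in letrozole-treated mice and 4 for the difference between both antibody effects. Replicate numbers did not pair the tumours (same-numbered deviations correlated at −0.045 to 0.092, and only number 5 matched itself best), and with a replicate block the sham comparison had 0 calls (596 unadjusted), the letrozole comparison 1 and their difference 0. Leaving out each library in turn gave 0 calls in each of these comparisons. The count at an unadjusted p under 0.05 (541) moved more: 1265 of 38996 genes with no filter, 337 of 14659 with a minimum of 50, 338 with the 2 groups alone, 912 without vehicle 3 and anti-PD-1 1, and 437 to 1087 when each library was left out, the latter without anti-PD-1 5 and 1001 without vehicle 3. The 2 groups alone cannot give the difference between both effects. Of 3139 values of 127 named genes under alternatives, 82 had the other sign, 0 of them called, and 5 were called, all by DESeq2. Of 903 list medians 1 moved beyond the spread between tumours, and 8 of 43 lists kept 1 sign in all alternatives. For genes below the median level, depth and spread leave differences of 1 log2 unit undetectable in most.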

Other observations

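A few transcripts reached a level at least 100-fold above their median over the 20 libraries in 1 or a few tumours. Anti-PD-1 1 held 19 such genes, anti-PD-1 2 held 12, anti-PD-1 3 held 9 and anti-PD-1 4 and 5 held 3 each, against 2 to 6 in each vehicle library. Letrozole 1 to 5 held 6, 9, 6, 6 and 16, and letrozole + anti-PD-1 1 to 5 held 5, 8, 5, 2 and 7. Among the anti-PD-1 libraries the count was highest where reads were fewest, and the part of depth was not tested. C3, the central complement component, had 257441 normalised counts in anti-PD-1 1 and a median of 2369 over all libraries. Its other sham values were 94673, 2486, 83286, 168 and 65922 in vehicle and 116345, 2090.2, 2252 and 1117 in anti-PD-1 2 to 5, a wide range in both groups. Lgr5, a stem cell receptor of epithelia, reached 31378 counts in anti-PD-1 1 against a median of 19.5, and it was at least 100-fold above that median in 4 of the 20 libraries. Adgrb2 was likewise high in 4 libraries, anti-PD-1 1 and 3, letrozole 2 (27142 counts) and letrozole + anti-PD-1 5 (37733), so both antibody and antibody-free groups hold such tumours. Tns1, a focal adhesion gene, was high in 1 vehicle tumour, with 92631 counts in vehicle 4 and a median of 519.

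Vmn2r5, a vomeronasal receptor gene, had 65.9, 152, 119.8, 140.4 and 116 counts in vehicle and 546, 3102, 1458, 2193 and 51.3 in anti-PD-1 tumours, higher in 4 of 5 treated tumours than in any vehicle tumour (log2 difference 2.75, 95% interval 0.68 to 4.83), and 0.31 between the letrozole groups. It did not pass adjustment by limma. Among 3983 tested transcripts without a gene name, limma called 0 in the sham comparison (190 at an unadjusted p under 0.05, smallest adjusted p 0.859).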
